A study of Mus musculus with 17 samples.

Results

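The genes examined here encode lysosomal enzymes, lysosomal membrane proteins, subunits of the proton pump of the lysosome and the transcription factors TFEB, TFE3 and MITF. The 47 members were listed by symbol and looked up in the count table, which holds 31091 gene identifiers, and all 47 were found. They comprise 11 cathepsins and other proteases, 9 glycosidases, 4 sulfatases, 8 enzymes and activator proteins of lipid breakdown, the nuclease gene Dnase2a, 6 membrane proteins including 1 channel, 5 subunits of the vacuolar ATPase (V-ATPase) and the 3 factors of the MiT/TFE family. Bulk RNA sequencing of polyadenylated RNA was done in 17 samples of conventional dendritic cells (cDCs), to compare how cDC1s and cDC2s respond to apoptotic and to necroptotic tumor cell debris. Each combination of cell type and medium had 3 samples, except for cDC2s given RIPK3 medium, which had 2.

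All groups share the same source of cells. Female C57BL/6JRj mice of 8 weeks carried B16 tumors that secrete FLT3L, a growth factor that expands cDCs, and CD11c+ cells were enriched with beads from spleens of which at least 2 were pooled. These cells were cultured for 6 h with medium of TC-1 cells, a mouse lung epithelial tumor line, and were sorted by flow cytometry into cDC1s and cDC2s afterwards. WT medium came from live TC-1 cells, BimS medium from TC-1-iBimS cells that die by apoptosis once cumate switches on the BH3-only protein BimS, and RIPK3 medium from TC-1-iRIPK3 cells that die by necroptosis once cumate switches on a RIPK3 that joins to itself. Both inducible lines were single clones, and GM-CSF was in the culture. Cumate was given to all 3 lines, so the control medium held it too, and both cDC types were in the same culture during exposure. No source states whether the numbered replicates came from separate pools of mice, so p-values here measure the spread between these samples.

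Lysosomes are acidic compartments in which hydrolases break down proteins, glycans, lipids and nucleic acids that reach them by phagocytosis, endocytosis or autophagy. The V-ATPase pumps protons to keep them acidic, and membrane proteins such as LAMP1 and LAMP2 line them. TFEB, TFE3 and MITF are related transcription factors that move into the nucleus when mTORC1 activity at the lysosome falls and bind short promoter sequences, the CLEAR elements around the letters CACGTG, in many lysosomal genes. In dendritic cells the activity of the cathepsins and the degree of acidification govern how far an engulfed antigen is degraded before it is presented.

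Because CACGTG is the known core of these elements, the RefSeq promoter windows (build GRCm38.p6, 250 bases before to 50 bases after a gene's start) were searched for it. Windows were matched for 41 of the 47 members. CACGTG, which reads the same on both strands, was in a window of 12 of these 41 members (29.3%), namely Arsa, Atp6v1a, Ctsa, Ctsd, Ctsl, Gaa, Gla, Glb1, Lamp1, Lgmn, Mcoln1 and Sgsh, against 8.09% of the 27025 genes with a window. The longer word TCACGTGA, which contains CACGTG, was in 5 members (12.2%, against 1.12% of genes). The related word TCATGTGA, searched on both strands, was in 4 members (9.76%, against 1.15%), which were Ctss, Gla, Ppt1 and Tpp1.

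The next 4 windows are shown because Lipa, Atp6v1a and Ctsd are among the members that were higher with debris and because Lamp1 holds the largest number of matches of any member. Capitals mark CACGTG. They lie at chr19:34527425-34527724 (minus strand, Lipa), chr16:44139210-44139509 (minus strand, Atp6v1a), chr7:142387778-142388077 (minus strand, Ctsd) and chr8:13158911-13159210 (plus strand, Lamp1), and each is written 5′ to 3′ along the strand of its gene.
Lipa: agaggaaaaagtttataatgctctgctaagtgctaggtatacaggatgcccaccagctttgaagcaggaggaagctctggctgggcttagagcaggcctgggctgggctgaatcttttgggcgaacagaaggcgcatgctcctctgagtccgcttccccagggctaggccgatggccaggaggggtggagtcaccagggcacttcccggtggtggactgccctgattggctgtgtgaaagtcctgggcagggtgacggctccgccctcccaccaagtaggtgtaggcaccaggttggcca
Atp6v1a: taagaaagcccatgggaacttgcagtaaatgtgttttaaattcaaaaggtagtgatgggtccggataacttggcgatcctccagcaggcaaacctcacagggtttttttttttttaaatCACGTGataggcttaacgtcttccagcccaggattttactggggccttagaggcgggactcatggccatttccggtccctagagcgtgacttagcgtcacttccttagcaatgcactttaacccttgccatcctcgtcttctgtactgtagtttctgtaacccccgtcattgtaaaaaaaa
Ctsd: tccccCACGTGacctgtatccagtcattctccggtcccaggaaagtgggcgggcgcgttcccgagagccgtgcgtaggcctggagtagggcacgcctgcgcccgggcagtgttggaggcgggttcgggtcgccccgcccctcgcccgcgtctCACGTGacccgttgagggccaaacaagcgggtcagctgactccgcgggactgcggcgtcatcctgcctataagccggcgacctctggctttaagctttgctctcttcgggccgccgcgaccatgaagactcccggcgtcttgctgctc
Lamp1: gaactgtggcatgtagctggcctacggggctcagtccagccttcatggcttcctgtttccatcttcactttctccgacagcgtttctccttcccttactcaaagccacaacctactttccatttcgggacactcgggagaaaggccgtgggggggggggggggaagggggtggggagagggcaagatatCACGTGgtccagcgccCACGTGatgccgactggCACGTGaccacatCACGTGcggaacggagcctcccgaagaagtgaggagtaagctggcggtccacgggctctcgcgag
The Lipa window has 0 matches, the Atp6v1a window has 1 at -131 from the start, the Ctsd window has 2 at -245 and -98, and the Lamp1 window has 4 at -61, -45, -28 and -15. A match is a run of letters and was not tested as a binding site.

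The samples held 16095159 to 21645289 counts each (median 18986002), and the 47 members together took 0.360% to 0.449% of the counts of a sample. The unit of expression is CPM, in which TMM factors adjust each library total, and a gene was called higher or lower at an adjusted p under 0.05 in edgeR's quasi-likelihood test across all genes. Summed over 9 markers of cDC1s, the level was 1412 to 1739 CPM in the cDC1 samples and 99.0 to 132 CPM in the cDC2 samples, and over 7 markers of cDC2s it was 2.53 to 4.04 CPM and 287 to 374 CPM. Macrophages are rich in lysosomal transcripts. The sum over 12 macrophage markers was 11.1 to 15.2 CPM in cDC1s with WT medium, 6.31 to 7.06 with BimS and 6.22 to 8.06 with RIPK3, and in cDC2s it was 49.4 to 57.1, 42.0 to 51.9 and 35.2 to 40.1 CPM. Of its genes, Mrc1, Fcgr1 and C1qc were called lower with BimS in cDC1s, Fcgr1 with RIPK3 in cDC1s, and Mrc1 and Fcgr1 with RIPK3 in cDC2s. These macrophage sums moved down with debris and differed between the cell types. The sum over 6 B cell genes, most of it Ighm, was 34.8 to 41.3 CPM in cDC2s with WT medium. It was 26.9 to 33.2 CPM there with BimS and 46.2 to 46.8 with RIPK3, and 13.7 to 25.4 CPM in cDC1s. The part of the macrophage and B cell sums in the results that follow was not tested. The sum over 9 genes of epithelial tumor cells was 7.33 to 9.07 CPM with WT medium in cDC1s and at most 8.88 CPM with debris, and 35.4 to 44.3 CPM and 24.1 to 39.1 CPM in cDC2s. Most of the cDC2 sum was Cdh1, the E-cadherin gene, at means of 32.7 CPM with WT medium, 25.6 with BimS and 20.4 with RIPK3, and the other 8 genes had means of at most 2.96 CPM there.

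Levels per kilobase of the gene's canonical transcript ordered the members within WT medium. In cDC1s the highest were Ctss, the cathepsin S gene, at 290.2 ± 6.44 CPM per kb (SD, n = 3), and Psap, the precursor of the saposins that help degrade sphingolipids, at 258 ± 12.9. Lgmn (91.1 ± 2.22), Ppt1 (86.7 ± 6.36) and Ctsz (83.6 ± 1.16) followed, and Ppt1 differed from each of its neighbors by less than its own SD. In cDC2s Ctss again led at 459.6 ± 45.0 CPM per kb, ahead of Ctsz (240.03 ± 25.4) and Lgmn (150.1 ± 8.09), while Psap was at 40.4 ± 7.72. At the other end, Atp6v0d2, a V-ATPase subunit gene, had 0 to 3 counts in every sample and Gpnmb, a transmembrane glycoprotein gene, was also low. In cDC2s Gpnmb had 14, 5 and 12 counts with WT medium, 4, 13 and 15 with BimS and 4 and 6 with RIPK3. In cDC1s its counts were 4, 2 and 1, then 3, 1 and 3, and then 3, 1 and 2 in the same order of media.

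The first comparison asked how lysosomal expression differs between cDC1s and cDC2s over all media. Of the 46 members tested, 21 were higher in cDC1s and 21 in cDC2s (91.3%; 59.8% of the 19082 genes tested were called, 30.4% higher in cDC1s and 29.4% in cDC2s), and the median log2 fold change of the members was 0.06. Among genes that average at least 3 on the log2 CPM scale, 80.7% were called, and 97.4% of the members at that level. The families differed in direction. Of the 11 proteases, 10 were higher in cDC2s and Ctsb alone was higher in cDC1s, whereas 6 of the 8 lipid genes were higher in cDC1s and 0 in cDC2s, and 6 of 9 glycosidases were higher in cDC1s and 2 in cDC2s. In WT medium alone 7 of these calls were lost, those of Ctsk, Gla, Ids, Lipa, Cd68, Atp6v0a1 and Atp6v1h, and limma on log2(count + 1) lost those of Ctsa, Ctsk, Gla, Ids, Lamp1, Mcoln1, Atp6v1b2 and Atp6v1h.

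**Figure D1:**
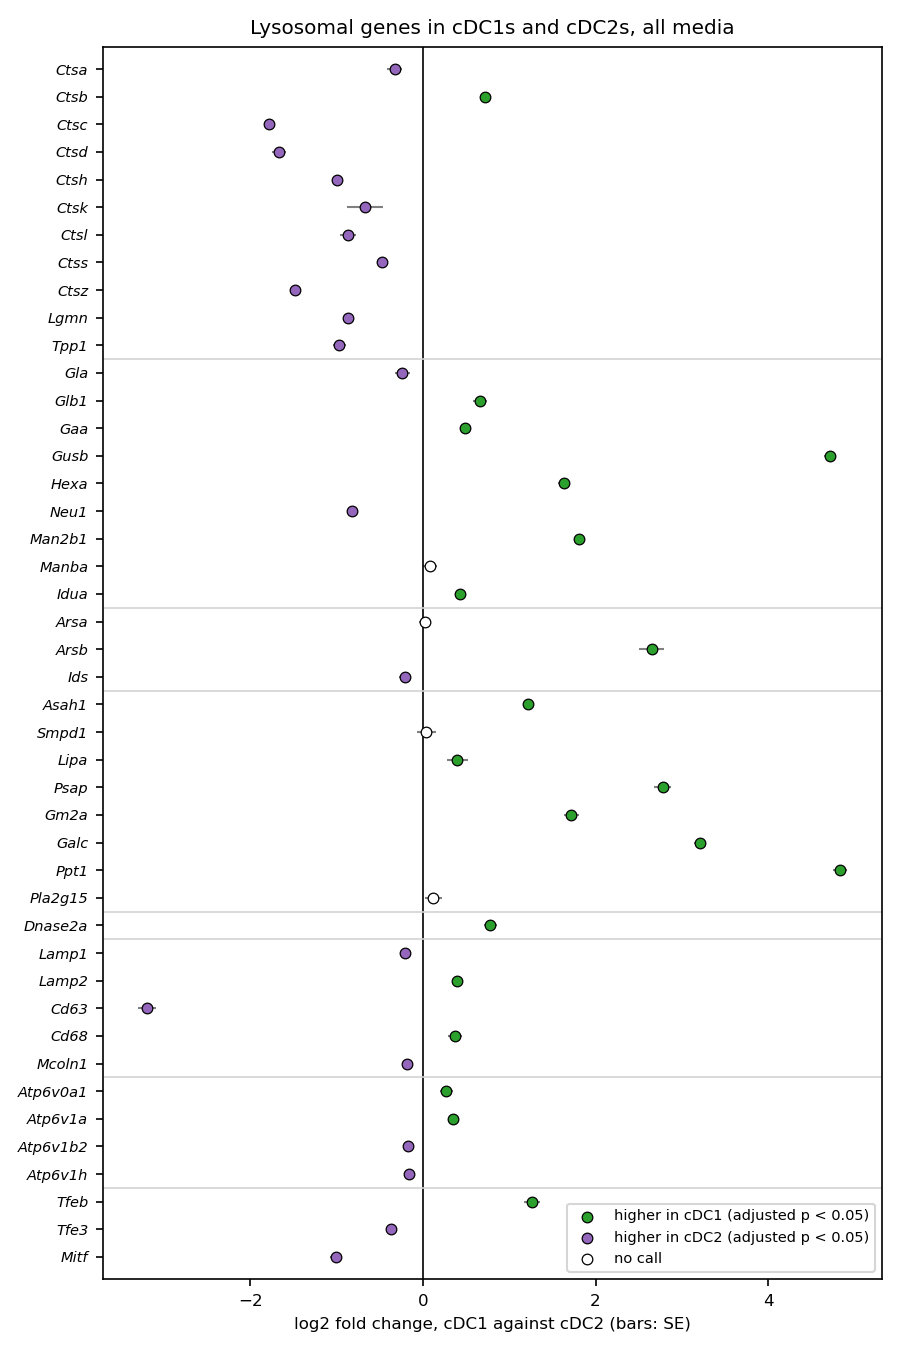
Log2 fold change of each member between cDC1s and cDC2s over all media (points) with its SE (bars), ordered by family, with positive values for members higher in cDC1s. Proteases lie mostly to the left of 0, lipid genes to the right, and Ppt1 (4.83), Gusb (4.72) and Galc (3.21) lie farthest to the right and Cd63 (-3.20) farthest to the left. Atp6v0d2, Sgsh and Gpnmb are not drawn because of their low counts.

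Ppt1, which encodes the palmitoyl-protein thioesterase that removes fatty acids from proteins, was at 208, 208 and 236 CPM in cDC1s with WT medium and at 7.03, 8.49 and 8.90 CPM in cDC2s. Over all media it was 28.5-fold higher in cDC1s (log2 fold change 4.83 ± 0.0800 SE, adjusted p = 3.46e-25). Its exons overlap those of Cap1 on the other strand, a gene at a mean of 592 CPM, and how the counting used the strand is not given in the sources used here. Gusb, the beta-glucuronidase gene, stood at 143, 129.7 and 147 CPM in cDC1s with WT medium against 5.90, 6.77 and 4.91 CPM in cDC2s (26.4-fold, log2 fold change 4.72 ± 0.0730, adjusted p = 3.53e-30). Both genes thus had cDC1 levels far above any cDC2 sample.

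Galc, the galactosylceramidase gene, was 9.25-fold higher in cDC1s (log2 fold change 3.21 ± 0.0738, adjusted p = 6.82e-26), with 62.7, 76.7 and 62.0 CPM against 7.24, 6.48 and 5.94 CPM in WT medium. Sgsh, which encodes a sulfatase of heparan sulfate breakdown, had 52, 66 and 77 counts in cDC1s with WT medium, 53, 70 and 76 with BimS and 44, 48 and 37 with RIPK3. In cDC2s it had 4, 6 and 0, then 3, 3 and 2, and then 4 and 3 counts, too few for a fold change. Psap and Arsb, a sulfatase gene, followed with log2 fold changes of 2.78 ± 0.0983 and 2.65 ± 0.148. These genes of lipid, heparan sulfate and other glycan breakdown were higher in every cDC1 sample than in any cDC2 sample.

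In the other direction Cd63, a tetraspanin of late endosomes, was at 5.88, 5.85 and 6.69 CPM in cDC1s with WT medium and at 57.9, 55.1 and 68.6 CPM in cDC2s (log2 fold change -3.20 ± 0.0998, adjusted p = 6.42e-16). Ctsc, the dipeptidyl peptidase that activates serine proteases, was at 51.7, 55.1 and 58.0 CPM in cDC1s and 229, 234 and 240.2 CPM in cDC2s (log2 fold change over all media -1.78 ± 0.0663, adjusted p = 7.39e-17). For Ctsd, the aspartic protease cathepsin D, it was -1.67 ± 0.0804 (adjusted p = 1.05e-17). The cDC1 and cDC2 samples did not overlap in any of these 3 genes.

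The MiT/TFE factors did not share a direction. Tfeb was higher in cDC1s (log2 fold change 1.26 ± 0.0924, adjusted p = 2.78e-13), whereas Mitf (-1.01 ± 0.0661, adjusted p = 1.95e-14) and Tfe3 (-0.37 ± 0.0354, adjusted p = 1.39e-10) were higher in cDC2s. Per kilobase and in WT medium, Tfe3 was the most abundant of the 3 in both cell types, at 29.9 CPM per kb in cDC1s and 38.3 in cDC2s, with Tfeb at 6.02 and 2.61 and Mitf at 1.45 and 3.02.

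The second comparison asked how cDC1s respond to debris. With BimS medium 21 of 46 members were called in cDC1s, 11 higher and 10 lower (45.7%; 13.2% of the 19513 genes tested were called, 7.31% higher and 5.89% lower). With RIPK3 medium 17 were called, 10 higher and 7 lower (37.0%; 16.5% of genes were called, 8.34% higher and 8.19% lower). The members are expressed more strongly than most genes. Among genes that average at least 3 on the log2 CPM scale, 25.8% were called with BimS and 31.7% with RIPK3, and 18 (47.4%) and 13 (34.2%) of the 38 members at that level. The median log2 fold change of the members was 0.05 with BimS and 0.00 with RIPK3, so they did not rise as a family. Both comparisons use the same WT samples, as do those in cDC2s.

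**Figure D2:**
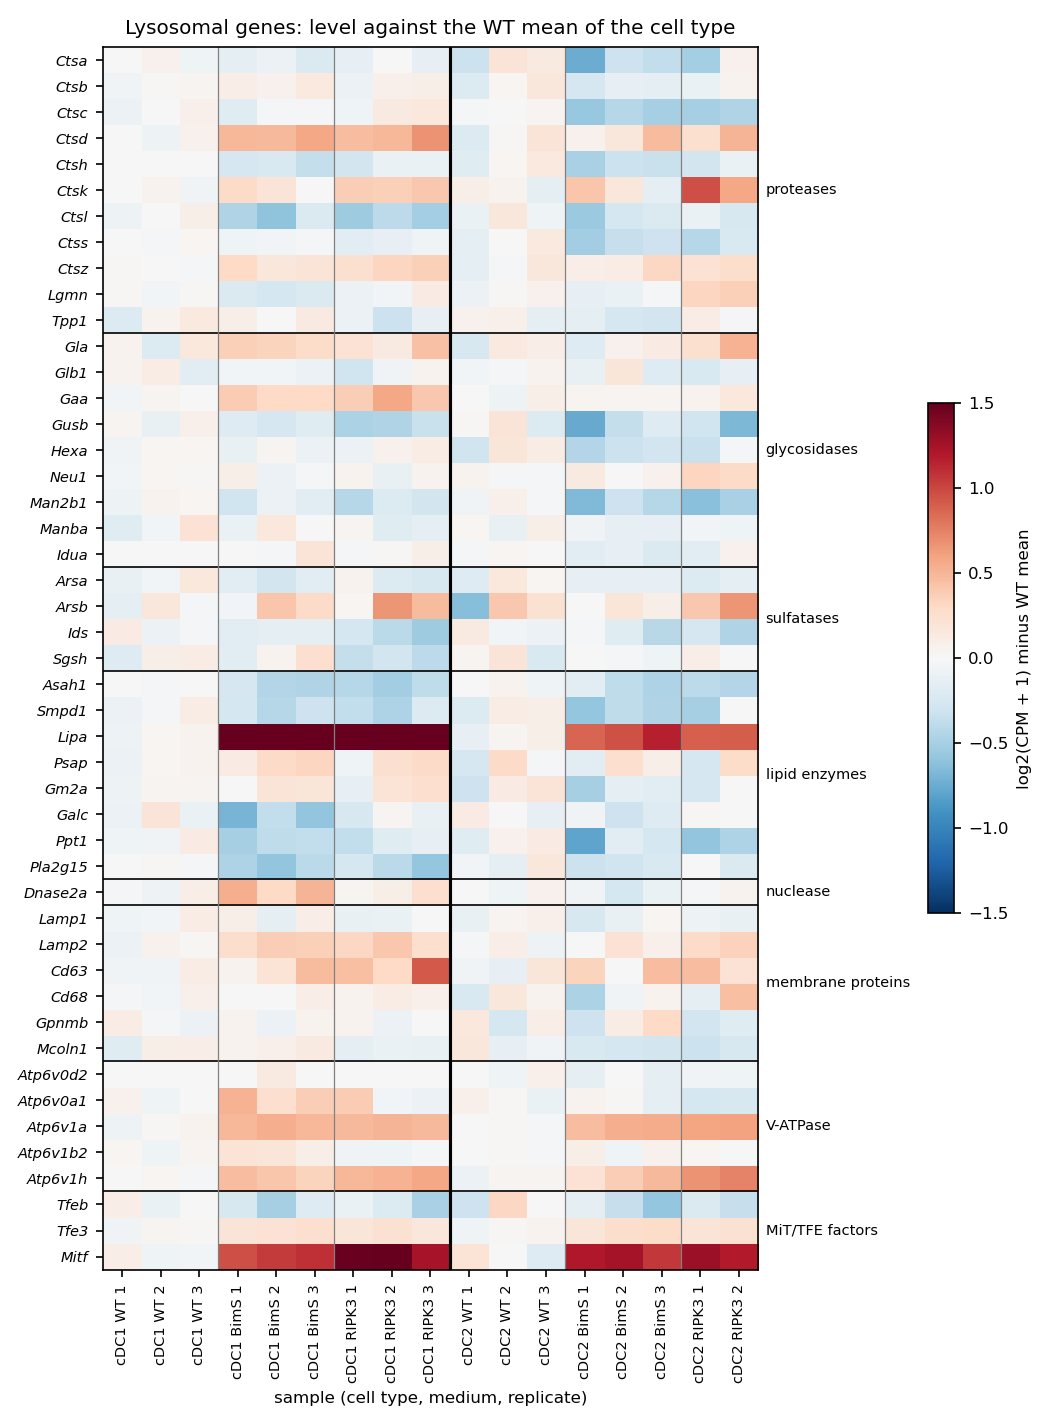
Level of the 47 members in each of the 17 samples as log2(CPM + 1) minus the mean of the WT samples of the same cell type, with red for higher and blue for lower. Lipa and Mitf are red in all debris samples of both cell types, and the other families hold a mixture of colors. Colors are cut at 1.5, which Lipa in cDC1s exceeds.

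Lipa had the largest rise in cDC1s. It encodes lysosomal acid lipase, which frees cholesterol and fatty acids from the cholesteryl esters and triglycerides that reach the lysosome, and it lies at chr19:34469712-34522163 (GRCm39, minus strand). In cDC1s it was at 82.1, 88.3 and 89.8 CPM with WT medium, at 309.6, 268 and 306 CPM with BimS and at 310.3, 285 and 313 CPM with RIPK3. All 6 debris samples were above all 3 WT samples, by 3.39-fold with BimS (log2 fold change 1.76 ± 0.0571 SE, adjusted p = 1.57e-22) and 3.49-fold with RIPK3 (1.80 ± 0.0572, adjusted p = 7.92e-23). The debris types overlapped, with a log2 difference of 0.04 ± 0.0542 between RIPK3 and BimS (adjusted p = 0.816).

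In cDC2s Lipa was at 86.9, 97.7 and 101 CPM with WT medium, at 175, 185 and 214 CPM with BimS and at 178 and 179.6 CPM with RIPK3. It rose 2.00-fold with BimS (log2 fold change 1.00 ± 0.0894, adjusted p = 3.30e-07) and 1.87-fold with RIPK3 (0.90 ± 0.0980, adjusted p = 3.17e-06). The rise was larger in cDC1s, by 0.76 ± 0.109 on the log2 scale with BimS (interaction, adjusted p = 0.000133) and by 0.89 ± 0.116 with RIPK3 (adjusted p = 2.97e-05). These 6 calls held in every alternative and with each sample left out. In WT medium alone the cell types differed by -0.13 (adjusted p = 0.169), so the higher level in cDC1s over all media (log2 fold change 0.40 ± 0.117, adjusted p = 0.00850) was seen with debris.

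**Figure D3:**
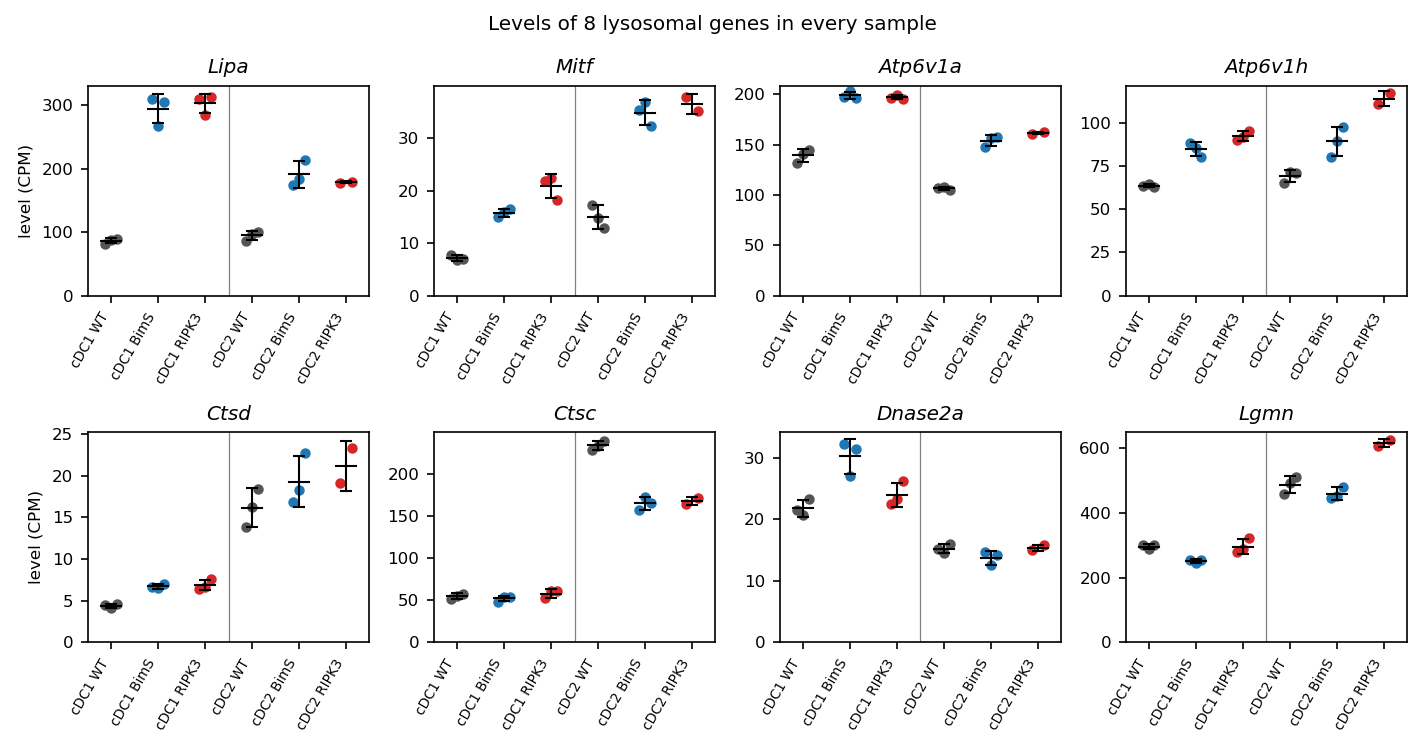
CPM of 8 members in every sample (points; gray WT, blue BimS, red RIPK3) with the group mean and SD (bars; n = 3, and n = 2 for cDC2s with RIPK3). Lipa, Mitf, Atp6v1a and Atp6v1h are above the WT samples with both debris types in both cell types. Against WT medium, Ctsc was called lower only in cDC2s and Dnase2a was called higher only with BimS in cDC1s. Lgmn is higher with RIPK3 than with BimS.

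Mitf, at chr6:97783950-97998323 (GRCm39, plus strand), rose in the same 4 comparisons. Its level in cDC1s was 7.77, 6.82 and 6.96 CPM with WT medium, 15.0, 15.9 and 16.5 CPM with BimS, and 21.8, 22.4 and 18.2 CPM with RIPK3. The 3 groups did not overlap, and the log2 fold change was 1.14 ± 0.104 with BimS (adjusted p = 1.02e-10), 1.54 ± 0.102 with RIPK3 (adjusted p = 1.85e-14) and 0.40 ± 0.0920 between RIPK3 and BimS (adjusted p = 0.00664). The last of these was not called with limma on log2(count + 1) (adjusted p = 0.288) or without RIPK3 replicate 2 (adjusted p = 0.0610). In cDC2s Mitf went from 17.2, 14.9 and 12.8 CPM with WT medium to 35.4, 36.9 and 32.2 CPM with BimS (log2 fold change 1.21 ± 0.112, adjusted p = 5.38e-07) and 37.8 and 35.1 CPM with RIPK3 (1.27 ± 0.123, adjusted p = 7.48e-07). Every debris sample again exceeded every WT sample. Whether one transcript form of Mitf accounts for the counts is not resolved, because they are summed per gene.

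Tfe3 was slightly higher in cDC1s, with 98.4, 105 and 103 CPM in WT medium, 117, 119 and 122 CPM with BimS (log2 fold change 0.22 ± 0.0505, adjusted p = 0.00171) and 116, 119 and 115 CPM with RIPK3 (0.20 ± 0.0506, adjusted p = 0.00489). These calls were lost with limma on log2(count + 1) (adjusted p = 0.377 and 0.728), and the call with RIPK3 also without WT replicate 1 (adjusted p = 0.0555). In cDC2s Tfe3 was at 124, 133 and 135 CPM with WT medium, 148, 157 and 159 CPM with BimS and 149.85 and 153 CPM with RIPK3, without overlap with WT. The log2 fold changes there were 0.24 ± 0.0772 with BimS (adjusted p = 0.0726, and 2.22e-06 with the replicate number as a block) and 0.20 ± 0.0860 with RIPK3 (adjusted p = 0.20, and 0.000317 with the block). Tfeb fell by 0.33 on the log2 scale with BimS in cDC1s (SE 0.108, adjusted p = 0.0341), from 15.1, 13.1 and 14.1 to 11.8, 9.72 and 12.2 CPM. Without WT replicate 1, WT replicate 3 or BimS replicate 2 that call was lost (adjusted p = 0.168, 0.0811 and 0.225), as it was with DESeq2 (0.0911) and limma (0.0837). With RIPK3 Tfeb was at 13.1, 12.1 and 9.78 CPM, a difference from WT of -0.27 ± 0.108 on the log2 scale (adjusted p = 0.0895, and 0.0268 with the block), and in cDC2s the log2 fold change was -0.43 ± 0.191 with BimS (0.230, and 0.0207 with the block) and -0.37 ± 0.216 with RIPK3 (0.410). Its cDC2 samples overlapped, at 4.67, 7.69 and 6.04 CPM with WT medium, 5.41, 4.52 and 3.70 with BimS and 5.04 and 4.51 with RIPK3. Thus Mitf, Tfe3 and Tfeb did not move in 1 direction.

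The V-ATPase subunits that were called against WT medium without the block were all higher. Atp6v1a and Atp6v1h encode parts of the cytosolic domain that hydrolyses ATP. Atp6v1a was at 132, 141 and 145 CPM in cDC1s with WT medium, at 197, 203 and 196 CPM with BimS (log2 fold change 0.51 ± 0.0490, adjusted p = 2.82e-10) and at 196, 199 and 195 CPM with RIPK3 (0.50 ± 0.0491, adjusted p = 4.73e-10). In cDC2s it was at 107, 108 and 105 CPM, at 148, 156 and 157 CPM (0.53 ± 0.0762, adjusted p = 0.000114) and at 161 and 162 CPM (0.59 ± 0.0842, adjusted p = 7.84e-05, and 0.0647 with limma). The rise was of like size in both cell types, with interactions of -0.02 ± 0.0824 for BimS and -0.10 ± 0.0874 for RIPK3, which were not called. Its exons overlap those of Naa50 on the other strand.

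Atp6v1h was at 63.2, 64.7 and 62.9 CPM in cDC1s with WT medium, at 88.4, 85.4 and 80.3 CPM with BimS (log2 fold change 0.41 ± 0.0547, adjusted p = 3.91e-07) and at 89.9, 91.6 and 95.4 CPM with RIPK3 (0.54 ± 0.0547, adjusted p = 1.08e-09). In cDC2s it was at 65.3, 71.5 and 71.2 CPM, at 80.4, 89.5 and 97.5 CPM (0.36 ± 0.0877, adjusted p = 0.0136) and at 111 and 117 CPM (0.71 ± 0.0966, adjusted p = 4.82e-05). The RIPK3 samples were the highest in both cell types. The cDC2 rise with BimS was lost without WT replicate 2, BimS replicate 2 or BimS replicate 3 (adjusted p = 0.0502, 0.0579 and 0.0812) and with limma (0.267). Between RIPK3 and BimS in cDC2s the difference was 0.35 ± 0.0966 (adjusted p = 0.162, and 1.49e-09 with the block). Atp6v1b2, another subunit of that domain, was higher with BimS in cDC1s by 0.16 ± 0.0545 (adjusted p = 0.0424), a call lost when any of 6 samples was left out and with DESeq2, limma or no filter (adjusted p = 0.0774, 0.644 and 0.0651), and Atp6v0a1 of the membrane domain was not called (0.39 ± 0.129, adjusted p = 0.103, and 1.71e-08 with the block). With RIPK3 in cDC2s Atp6v0a1 was lower with the block (log2 fold change -0.33, adjusted p = 2.45e-05, and -0.27 with adjusted p = 0.138 without it).

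Among the proteases, Ctsd and Ctsz rose in cDC1s with both debris types and Ctsl fell with both. Ctsd was at 4.43, 4.12 and 4.63 CPM with WT medium, at 6.62, 6.54 and 7.06 CPM with BimS (log2 fold change 0.61 ± 0.134, adjusted p = 0.00104) and at 6.42, 6.63 and 7.60 CPM with RIPK3 (0.64 ± 0.135, adjusted p = 0.000516). Every debris sample was above every WT sample, at 81 to 140 counts a sample. In cDC2s, where it stood higher at 13.8, 16.2 and 18.5 CPM with WT medium, it was at 16.8, 18.3 and 22.7 CPM with BimS and 19.1 and 23.3 CPM with RIPK3, and the log2 fold changes were 0.25 ± 0.132 with BimS (adjusted p = 0.335, and 0.0183 with the block) and 0.39 ± 0.147 with RIPK3 (adjusted p = 0.142, and 7.36e-06 with the block). Ctsz, a carboxypeptidase, rose by 0.23 ± 0.0478 and 0.31 ± 0.0478 in cDC1s, and Ctsl, the endopeptidase cathepsin L, fell by 0.51 and 0.58 on the log2 scale (SE 0.150 and 0.153). The Ctsl call with BimS was lost with DESeq2 (adjusted p = 0.0570) or without WT replicate 3, BimS replicate 1 or BimS replicate 2 (0.0562 to 0.141), and limma on log2(count + 1) called neither Ctsz change (0.333 and 0.240).

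Pla2g15, a lysosomal phospholipase gene, had the largest fall with BimS in cDC1s. It went from 5.33, 5.39 and 5.17 CPM to 3.56, 3.18 and 3.76 CPM (log2 fold change -0.60 ± 0.155, adjusted p = 0.00615) and to 4.25, 3.76 and 3.22 CPM with RIPK3 (-0.49 ± 0.155, adjusted p = 0.0229). The RIPK3 call was lost when any of 5 of the 9 samples was left out (adjusted p up to 0.112) and with DESeq2 (0.0706). Other lipid enzymes also fell in cDC1s. Asah1, the acid ceramidase gene, fell by 0.38 with BimS and 0.45 with RIPK3 on the log2 scale (adjusted p = 5.07e-06 and 1.99e-07), and Ppt1 fell by 0.42 and 0.23 (adjusted p = 1.04e-05 and 0.00852, the latter 0.0838 without WT replicate 3 and 0.0518 without RIPK3 replicate 1). Galc fell with BimS, from 62.7, 76.7 and 62.0 to 40.7, 51.5 and 44.1 CPM (-0.56 ± 0.111, adjusted p = 0.00652, and 0.0555 without RIPK3 replicate 3). With RIPK3 it was at 56.6, 68.7 and 62.0 CPM, within the WT range or just below it (-0.10 ± 0.109, adjusted p = 0.643). Of the 8 lipid genes, Lipa was called higher, beside 4 called lower with BimS and 3 with RIPK3. With the block Psap was also higher with both debris types (adjusted p = 3.51e-08 and 0.000782) and Gm2a with BimS.

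Of the glycosidases, Gaa, the acid alpha-glucosidase of glycogen breakdown, rose in cDC1s by 0.34 ± 0.0807 with BimS and 0.48 ± 0.0804 with RIPK3 (adjusted p = 0.00229 and 2.14e-05, the former 0.117 with limma). Gusb fell, from 143, 129.7 and 147 CPM to 122, 118 and 124 CPM with BimS and 101, 102 and 111 CPM with RIPK3, with log2 fold changes of -0.21 ± 0.0543 (adjusted p = 0.00571, 0.0716 without WT replicate 3 and 0.158 with limma) and -0.42 ± 0.0547 (adjusted p = 1.97e-07). The 3 groups did not overlap. Man2b1, the lysosomal alpha-mannosidase gene, fell in both cell types with both debris types, by 0.18 and 0.31 in cDC1s and by 0.47 and 0.57 in cDC2s on the log2 scale. Its cDC1 call with BimS (adjusted p = 0.0347) was lost when any of 5 samples was left out and with DESeq2 or limma (0.0660 and 0.211), and its cDC2 call with RIPK3 (adjusted p = 0.00174) without RIPK3 replicate 1 (0.0841).

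Of the membrane proteins, Lamp2 rose in cDC1s by 0.33 ± 0.0527 with BimS and 0.32 ± 0.0528 with RIPK3 (adjusted p = 9.77e-06 and 1.44e-05, the latter 0.203 with limma). Lamp1, the window of which holds 4 CACGTG matches, stayed within 115 to 138 CPM in cDC1s and was not called. Cd63 rose with RIPK3 in cDC1s, from 5.88, 5.85 and 6.69 to 8.75, 7.78 and 12.5 CPM (0.65 ± 0.155, adjusted p = 0.00393), and was at 6.42, 7.20 and 8.87 CPM with BimS (0.28 ± 0.159, adjusted p = 0.314). Its highest RIPK3 sample stood apart from the other two.

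In cDC2s, 9 of the 47 members were called with BimS, 4 higher and 5 lower (19.1%; 7.01% of the 19239 genes tested were called, 3.8% higher and 3.21% lower), and 10 with RIPK3, 6 higher and 4 lower (21.3%; 7.21% of genes were called, 3.93% higher and 3.28% lower). With the replicate number as a block the counts were 26 with BimS, 8 higher and 18 lower, and 25 with RIPK3, 15 higher and 10 lower. The share of all genes called rose to 21.3% (11% higher and 10.3% lower) and 21.4% (10% and 11.4%). Among genes that average at least 3 on the log2 CPM scale, 13.2% were called with BimS and 13.6% with RIPK3, and 9 (26.5%) of 34 members each time. The median log2 fold change of the members was -0.15 with BimS and -0.05 with RIPK3.

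Lipa, Mitf, Atp6v1a and Atp6v1h were higher in both cell types with both debris types. Without the block these were all 4 of the members higher in cDC2s with BimS and 4 of the 11 in cDC1s, and 4 of 6 and 4 of 10 with RIPK3. Asah1 and Man2b1 were lower in both cell types with both debris types, and Ctsh, an aminopeptidase, with BimS, a call lost in cDC2s without WT replicate 2 or BimS replicate 1 (adjusted p = 0.0794 and 0.0912). The cDC2 calls of Asah1 (-0.35 ± 0.0968 with BimS and -0.44 ± 0.110 with RIPK3) were lost when any of 6 and any of 3 samples was left out, and the former with DESeq2 or limma (adjusted p = 0.0666 and 0.0644). No member was called in opposite directions in the 2 cell types without the block. With the block Gm2a, which encodes an activator of ganglioside breakdown, was higher with BimS in cDC1s (log2 fold change 0.13, adjusted p = 0.0439) and lower in cDC2s (-0.28, adjusted p = 0.00027), and Ctsz, Ctsd, Cd63 and Tfe3 joined the members higher with BimS in cDC2s.

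**Figure D4:**
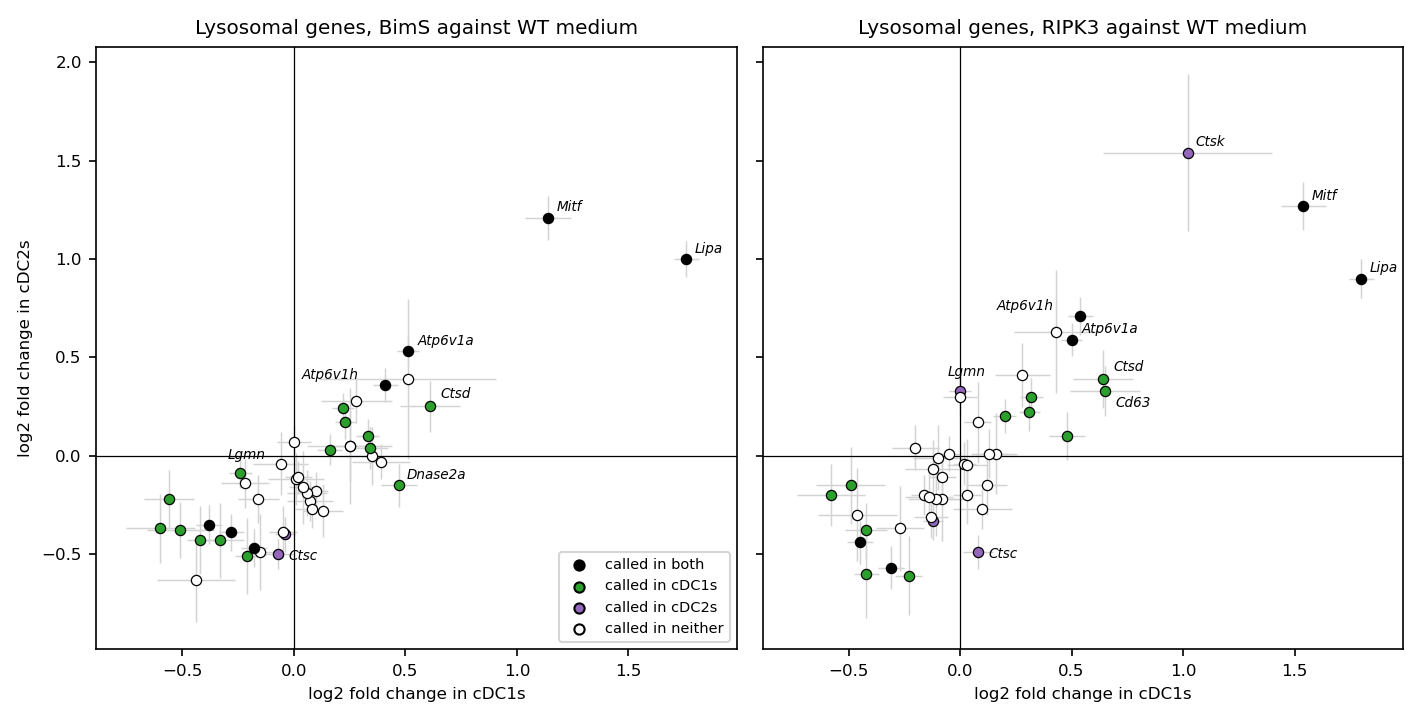
Log2 fold change against WT medium in cDC1s (horizontal) and cDC2s (vertical) for BimS (left) and RIPK3 (right), with SE as bars and fill by where the member was called. Lipa and Mitf lie at the upper right in both panels, and Ctsk also does with RIPK3 (1.02 in cDC1s and 1.54 in cDC2s). Ctsc was called lower in cDC2s alone. Gpnmb, Sgsh and Atp6v0d2 are not drawn because of their low counts.

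Ctsc was called lower in cDC2s and not in cDC1s. In cDC2s it went from 229, 234 and 240.2 CPM to 158, 173 and 166 CPM with BimS (log2 fold change -0.50 ± 0.0763, adjusted p = 0.000189) and 165 and 171 CPM with RIPK3 (-0.49 ± 0.0863, adjusted p = 0.000810), without overlap with WT. In cDC1s it was at 48.3 to 61.2 CPM in all media, with changes of -0.07 ± 0.0660 and 0.08 ± 0.0658. The difference between the responses was 0.43 ± 0.0991 for BimS (interaction, adjusted p = 0.0277) and 0.56 ± 0.105 for RIPK3 (adjusted p = 0.00334). The BimS interaction was lost when any of 7 of the 17 samples was left out (adjusted p of 0.0518 to 0.147), and both were lost with limma on log2(count + 1) (0.440 and 0.111). Ctss, which trims the invariant chain of MHC class II, also fell in cDC2s, by 0.40 with BimS (adjusted p = 0.00689, and 0.0639 without BimS replicate 1) and 0.33 with RIPK3 (adjusted p = 0.0467) on the log2 scale. The latter call was lost when any of 6 of the 8 samples was left out and with DESeq2, RLE size factors or another filter.

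Ctsk, the cathepsin K gene, is 1 of the many genes that the study drew for cDC2s with RIPK3 from these same samples, so its direction here is no independent evidence. It had 13, 11 and 8 counts in cDC2s with WT medium, 18, 15 and 7 with BimS and 32 and 23 with RIPK3. Both RIPK3 samples were above the others (log2 fold change 1.54 ± 0.398, adjusted p = 0.0199), a call lost without WT replicate 2 (adjusted p = 0.0572) or RIPK3 replicate 1 (0.280). In cDC1s it had 8, 9 and 8 counts with WT medium, 14, 13 and 8 with BimS (0.51 ± 0.398, adjusted p = 0.514) and 16, 16 and 15 with RIPK3 (1.02 ± 0.377, adjusted p = 0.0611). The adjusted p for RIPK3 in cDC1s ranged from 0.0384 to 0.193 over the alternatives and left-out samples.

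Apoptotic and necroptotic debris were then compared directly. In cDC1s 5 members were called, 2 of them higher with RIPK3 and 3 higher with BimS (10.9%; 4.15% of genes were called, 1.94% and 2.21%, and at 3 or more on the log2 CPM scale 9.01% of genes and 13.2% of members), and 12 with the block (8.87% of genes). In cDC2s Lgmn alone differed (2.13% of members; 0.379% of genes were called, 0.161% higher and 0.218% lower), against 12 members with the block (14.3% of genes). Lgmn encodes legumain, an asparaginyl endopeptidase that activates cathepsins, and it was higher with RIPK3 in both cell types.

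Lgmn was at 299, 287 and 299.9 CPM in cDC1s with WT medium, at 253, 245 and 254 CPM with BimS and at 278, 288 and 321 CPM with RIPK3. It fell with BimS (log2 fold change -0.24 ± 0.0504, adjusted p = 0.000792), and RIPK3 and BimS samples differed by 0.24 ± 0.0505 without overlap (adjusted p = 0.00314). Limma called neither (0.0779 and 0.580). In cDC2s it was at 458, 491 and 510.3 CPM, at 445, 452 and 481 CPM, and at 607 and 625 CPM with RIPK3. There the RIPK3 samples were above all others, by 0.33 ± 0.0832 against WT (adjusted p = 0.0163) and 0.42 ± 0.0831 against BimS (adjusted p = 0.0273). The last call was lost when any of 6 of the 8 samples was left out (adjusted p of 0.0508 to 0.637), and that against WT without WT replicate 2 or either RIPK3 sample (0.0642 to 0.168), and limma called neither (0.479 and 0.585).

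Dnase2a, the acid DNase that degrades engulfed DNA, was called only with BimS in cDC1s. It was at 21.5, 20.7 and 23.4 CPM with WT medium, at 32.3, 27.1 and 31.4 CPM with BimS and at 22.5, 23.2 and 26.2 CPM with RIPK3. All 3 BimS samples were above the other 6, by 0.47 ± 0.0806 against WT (adjusted p = 3.89e-05), while RIPK3 was 0.34 lower than BimS on the log2 scale (log2 fold change -0.34 ± 0.0805, adjusted p = 0.00880). That difference was lost without BimS replicate 1 or 3 (adjusted p = 0.0576 and 0.0602). In cDC2s it was at 12.5 to 16.0 CPM in all media, and the BimS response differed between the cell types by 0.62 ± 0.134 (interaction, adjusted p = 0.0150, up to 0.132 over the alternatives and lost when any of 5 of the 17 samples was left out).

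Gusb and Atp6v1b2 were lower with RIPK3 than with BimS in cDC1s, each with a log2 fold change of -0.21 (SE 0.0550 and 0.0548, adjusted p = 0.0190 and 0.0175). The Gusb call was lost when any of 4 samples was left out and the Atp6v1b2 call when any of 3 was, and limma on log2(count + 1) ended both (adjusted p = 0.128 and 0.141). Galc, which fell with BimS alone, differed by 0.46 ± 0.112 (adjusted p = 0.0540, and 1.11e-11 with the block). Lipa, Ctsd and Atp6v1a were not called between the debris types in either cell type, with log2 differences of -0.10 to 0.13.

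The response to debris was compared between the cell types with an interaction term for all members. For BimS 3 of 46 members were called (6.52%; 0.87% of genes), Lipa, Dnase2a and Ctsc, and 7 with the block (2.32% of genes). For RIPK3 2 were called (4.35%; 1.14% of genes), Lipa and Ctsc, and 3 with the block (2.35% of genes). In each call without the block the log2 fold change was more positive in cDC1s, while the call that the block added for RIPK3, Lgmn, was more negative in cDC1s. For the difference between RIPK3 and BimS, edgeR called 0 of 46 members (0.0314% of genes), with 8 at an unadjusted p under 0.05, and DESeq2 and limma called 0 as well.

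The responses of members with and without these words are given as a description, and their difference was not tested. With BimS in cDC1s 3 of the 12 members with CACGTG rose (Atp6v1a, Ctsd and Gaa) and 2 fell (Ctsl and Lgmn), beside 6 higher and 6 lower of the 29 members with a window that lacks it. The median log2 fold change of these 12 members was 0.05 with BimS in cDC1s (0.04 without the word), -0.08 with RIPK3 in cDC1s (0.03), -0.10 with BimS in cDC2s (-0.16) and 0.00 with RIPK3 in cDC2s (-0.05). Of the 5 members with TCACGTGA, 2 rose with each debris type in cDC1s, Atp6v1a and Ctsd, and 0 fell, beside 7 higher and 8 lower with BimS of the 36 members without it, and 7 and 6 with RIPK3. Their medians were 0.35 (0.02 without the word), 0.28 (0.00), 0.00 (-0.15) and 0.39 (-0.06) in the same order. Of the 4 members with TCATGTGA, 0 were higher and 1 was lower in each of these 4 comparisons, with medians of 0.02 (0.04 without the word), -0.16 (0.03), -0.32 (-0.12) and -0.15 (-0.05).

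A further 89 genes of the lysosome, of sorting to it and of mTORC1 and TFEB control, listed by function, were counted beside the members. The lists in the paragraphs that follow are parts of these 89. In cDC1s 30 of 88 (34.1%) were called with BimS, 23 higher and 7 lower, and 22 (25.0%) with RIPK3, 10 higher and 12 lower, against 13.2% and 16.5% of all genes and 25.8% and 31.7% of the more strongly expressed ones (mean log2 CPM of 3 or more). In cDC2s 11 of 89 (12.4%) were called with BimS, 2 higher and 9 lower, and 9 (10.1%) with RIPK3, 4 higher and 5 lower, against 7.01% and 7.21% of all genes and 13.2% and 13.6% of those at that level. With the block the cDC2 counts were 26 (29.2%), 9 higher and 17 lower, and 34 (38.2%), 19 higher and 15 lower, against 21.3% and 21.4% of all genes. Npc1, which exports the cholesterol that LIPA frees, rose in all 4 comparisons, from 48.7 ± 1.35 CPM (SD, n = 3) to 74.0 ± 2.27 with BimS and 64.9 ± 5.24 with RIPK3 in cDC1s (log2 fold changes 0.60 ± 0.0604 and 0.42 ± 0.0610), and from 64.8 ± 3.85 to 81.7 ± 5.72 and 85.3 ± 3.33 in cDC2s (0.33 ± 0.0865 and 0.39 ± 0.0960, adjusted p = 0.0220 and 0.0150).

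Of 16 genes of the mTORC1 pathway and TFEB control, 7 were higher with BimS in cDC1s (Fnip2, Lamtor3, Rragc, Rragd, Flcn, Fnip1 and Rptor) and 0 lower (43.8% called, against 13.2% of all genes and 25.8% of the more strongly expressed ones), and with RIPK3 2 were higher and 1 lower (18.8%, against 16.5% and 31.7%). Rragd, a GTPase that recruits mTORC1 to the lysosome, went from 1.29 ± 0.373 to 2.59 ± 0.187 CPM with BimS (log2 fold change 0.99 ± 0.232, adjusted p = 0.00240) and was at 1.31 ± 0.156 CPM with RIPK3. Between RIPK3 and BimS 5 of the 16 were lower and 0 higher (31.2%, against 4.15% of all genes and 9.01% of the more strongly expressed ones). In cDC2s edgeR called 0 of the 16 with either debris type, with 3 at an unadjusted p under 0.05 for BimS and 1 for RIPK3. With the block 4 and 3 were called (25.0% and 18.8%), near the shares of all genes with the block (21.3% and 21.4%). DESeq2 and limma calls were not counted for this list.

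Of the 12 other V-ATPase subunits, 4 were higher with BimS in cDC1s, led by Atp6v0c (0.33 ± 0.0582), and with RIPK3 3 were higher, led by Atp6v0d1 (0.29 ± 0.0502), and Atp6v0a2 was lower (-0.24 ± 0.0527). The share called was 33.3% each time, against 25.8% and 31.7% of the more strongly expressed genes. In cDC2s 2 were higher with RIPK3 (16.7%, against 13.6%). With the block 7 of these subunits were called with BimS in cDC1s and 8 with RIPK3 in cDC2s, all of them higher (58.3% and 66.7%, against 17.9% and 21.4% of all genes with the block). Their counts with the block for RIPK3 in cDC1s and for BimS in cDC2s are not given here. Of 30 other hydrolases and cofactors, 29 of which were tested in cDC1s, 5 were higher and 3 lower with BimS in cDC1s (27.6%, against 25.8% of the more strongly expressed genes) and 0 higher and 6 lower in cDC2s (20.0%, against 13.2%). With RIPK3 0 were higher and 5 lower in cDC1s (17.2%, against 31.7%), and 0 higher and 3 lower in cDC2s (10.0%, against 13.6%). With the block, 14 of the 29 hydrolases and cofactors tested in cDC1s were called with BimS (7 higher and 7 lower) and 9 with RIPK3 (2 and 7). The shares of all genes with the block were 17.9% and 21%. In cDC2s 12 of the 30 were called with RIPK3 (4 and 8), against 21.4% of all genes with the block. The count with BimS in cDC2s with the block is not given here. Dpp7, a dipeptidyl peptidase, rose with BimS in cDC1s from 5.67 ± 0.657 to 10.2 ± 1.40 CPM (0.83 ± 0.136, adjusted p = 1.58e-05), and Cst3, the cathepsin inhibitor cystatin C, fell with RIPK3 in cDC2s from 1280.4 ± 151 to 670.01 ± 23.7 CPM (-0.94 ± 0.10, adjusted p = 2.21e-06). In these bulk samples, fewer cells of a kind and less RNA per cell cannot be told apart.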

How the data were processed

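Gene expression was measured in 17 samples, grouped by the cell type and medium in the GEO labels. The deposited counts per gene were made by the authors with SeqPurge trimming, STAR 2.7.10a alignment to GRCm39 with Ensembl gene models and gensum counting, without normalization, and how strand was used is not given in the sources used here. Of 31239 lines, 148 without a gene identifier (0.0258% to 0.0366% of the counts of a sample) were left out. A deposited normalized table was not used here. Symbols came from GENCODE M39, which matched 30854 of 31091 identifiers. Exons of 12 members overlap another expressed gene, in 11 cases on the other strand.

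A gene entered a fit when at least 50% of its samples held a nonzero value. The main test was the quasi-likelihood test of edgeR 4.0.16 under R 4.3.3 with TMM scaling, for cDC1s and cDC2s separately and in 1 fit of all samples for cell type and interactions. Two-sided p-values received a Benjamini-Hochberg adjustment across every gene of the fit, with a threshold of 0.05. SE is on the log2 scale. The procedure was tested on simulated data. The members and gene lists were chosen with earlier results of these data known. Values by sample, in some media or cell types as a range, are given for the MiT/TFE factors, Ctsk, the 4 called members with the largest absolute log2 fold change in each medium comparison, the members called in an interaction and the 4 highest and 4 lowest in cDC1s against cDC2s (some of the latter in cDC2s in WT medium alone), and other members are examples of their family.

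Replicate numbers paired the samples. After removal of group means, same-numbered samples correlated above 0.1 in 9 of 9 pairs in cDC1s (median 0.328) and 7 of 7 in cDC2s (median 0.429), against 1 of 18 and 3 of 14 pairs with different numbers. Between a cDC1 and a cDC2 sample, 19 of 24 same-numbered pairs did (median 0.214), against 5 of 48 with different numbers. The main tests, including those of cell type and interaction, treated the samples as unpaired. The replicate number as a block was an alternative, with DESeq2 1.42.0, RLE size factors, filterByExpr, no filter, limma 3.58.1 on log2(count + 1), WT medium alone for the cell types, and each sample left out.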

Additional observations from a re-analysis of the deposited data

Results flagged for a closer look

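The response to debris differed between cDC1s and cDC2s for 3 members in edgeR's interaction test. For Lipa the log2 fold change was larger in cDC1s by 0.76 with BimS and by 0.89 with RIPK3. For Ctsc, which was called lower in cDC2s alone, the difference was 0.43 with BimS and 0.56 with RIPK3. For Dnase2a, which was called higher with BimS in cDC1s alone, it was 0.62 with BimS.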

How the results depend on the processing

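With the replicate number as a block, the number of members called went from 5 to 12 for RIPK3 against BimS in cDC1s, from 9 to 26 and from 10 to 25 for BimS and RIPK3 against WT in cDC2s, from 1 to 12 for RIPK3 against BimS in cDC2s and from 3 to 7 for the BimS interaction. The block changed none of the other counts by over 1.5 times and ended no call of a named member. Without a filter the counts were 8 for RIPK3 against BimS in cDC1s and 6 for the BimS interaction. With limma on log2(count + 1), which has no library scaling, they were 3 for RIPK3 against BimS in cDC1s, 0 for the same in cDC2s and 1 for each of the BimS and RIPK3 interactions. Shares of all genes called without a filter, with limma and with samples left out are not given here. These counts therefore do not single out the members. The alternatives were set beside 118 log2 fold changes. These were those of every called member and those of Tfeb, Tfe3, Mitf and Ctsk against WT, some of which were not called. DESeq2 ended the call of 7 and limma of 28, and limma also ended 3 with a turned direction. The cause of these changes was not tested.

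With each sample left out in turn, the count ranged from 17 to 23 for BimS and from 15 to 20 for RIPK3 against WT in cDC1s, from 2 to 8 for RIPK3 against BimS in cDC1s, from 6 to 12 for BimS and from 5 to 15 for RIPK3 against WT in cDC2s, from 0 to 2 for RIPK3 against BimS in cDC2s, from 1 to 4 and from 2 to 3 for the BimS and RIPK3 interactions, and from 41 to 42 for cDC1s against cDC2s. Between the cell types, the direction turned for Lipa in WT medium alone (-0.13) and, with limma on log2(count + 1), for Mcoln1 (0.02), Atp6v1b2 (0.02) and Atp6v1h (0.04). Ctsk, Gpnmb, Sgsh and Atp6v0d2 are limited by their counts.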
